A study of Mus musculus with 12 samples.

Results

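Transcripts of 35 genes of glucose breakdown, out of 25899 gene symbols in the deposited count table, were followed in intraepithelial lymphocytes (IEL) of the mouse small intestine. The genes were taken by name and cover glycolysis, the entry of pyruvate into mitochondria, the pentose phosphate pathway and phosphoglucomutase. Glycolysis splits glucose into pyruvate in steps that start with hexokinase and end with pyruvate kinase, and lactate dehydrogenase then turns pyruvate into lactate. Pyruvate dehydrogenase sends pyruvate to mitochondria instead, and the pyruvate dehydrogenase kinases switch that enzyme off. The pentose phosphate pathway branches off after hexokinase and yields NADPH and the ribose of nucleotides. Activated and dividing T cells are known for high rates of aerobic glycolysis.

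The cells came from Rag2-/- mice, which lack T and B cells but keep innate lymphoid, myeloid and epithelial cells. These hosts had received an intravenous injection of conventional CD4+ or CD8αβ+ T cells, taken from lymph nodes of donors wild type for Themis, 1 week earlier, and all sorted cells carry the genotype label WT. CD8αα from CD4 are TCRβ CD8αα+ IEL of hosts given CD4+ cells, set against CD4 IEL, the TCRβ CD4+ cells of such hosts. CD8αα from CD8αβ are TCRβ CD8αα+ IEL of hosts given CD8αβ+ cells, set against CD8αβ IEL, the TCRβ CD8αβ+ cells of such hosts. The study asks whether CD8αα+ IEL that derive from CD4+ and from CD8+ cells form separate lineages. Each of the 4 groups had 3 libraries of bulk RNA, and the labels give no sex or age and do not say that replicates were separate animals, so p-values measure the spread between these samples. Levels are CPM, reads scaled to a common library total (TMM), and errors of means are SD with n = 3. Fold changes are on the log2 scale with their SE, and a gene was called when edgeR's quasi-likelihood test gave an adjusted p under 0.05 over all 12622 genes tested. Where called genes are said not to overlap between groups, this describes the libraries that gave the call and is no separate support. The share of all genes without overlap was not counted.

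Libraries held 5618917 to 11068713 counts. Coreceptor transcripts followed the sort. Cd8a stood at 2433 to 2826 CPM in CD8αα from CD4 against 45.7 to 48.4 CPM in CD4 IEL, and Cd8b1 at 2.53 to 3.46 CPM in CD8αα from CD8αβ against 1087 to 1167 CPM in CD8αβ IEL. Other markers went against the labels. Of 12 T cell markers, 11 were called lower in CD8αα libraries of both origins; Cd3e, a chain of the T cell receptor complex, was at 3.21 to 12.8 CPM in CD8αα from CD4 against 505 to 639 CPM in CD4 IEL. The signalling adaptor Tyrobp of NK and myeloid cells was at 1428 to 3036 CPM in the 6 CD8αα libraries and at 24 to 165 CPM in the other 6. The sexes of donors and hosts are not labelled, and 4 of the 6 CD8αα libraries (CD8αα from CD4 replicates 1 and 2, CD8αα from CD8αβ replicates 1 and 3) held 373 to 645 CPM of Xist, the X-inactivation transcript, and 0 to 0.46 CPM of the Y-linked Ddx3y. The other 8 libraries held 0 to 36.4 CPM of Xist and 88.1 to 189 CPM of Ddx3y. Results are therefore also given without these 4 libraries, which leaves 1 library in each CD8αα group, assumed to vary like the other groups.

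Of the 35 genes, 34 passed the filter on low counts and were tested; Eno2, the neuronal enolase, had 8 reads in all 12 libraries together. Per kilobase of exon and averaged over all libraries, lactate dehydrogenase A (Ldha) was highest with 288 CPM per kb. Aldolase A (Aldoa) followed with 220.4, pyruvate kinase (Pkm) with 178, transaldolase (Taldo1) with 86.0 and enolase 1 (Eno1) with 72.1 CPM per kb. At the low end, after Eno2, stood hexokinase 3 (Hk3) with 0.344 and ribose 5-phosphate isomerase (Rpia) with 1.24 CPM per kb. Single isozymes made up nearly all the message of their step: Aldoa was 98.5% or more of both aldolases per length in each library, and Ldha stood above Ldhb to the same extent, with an Ldhb share of 0.166% to 1.32%. Gapdh, a gene commonly used as an internal standard, held 6.35 to 29.96 CPM per kb as a group mean, below 20 of the other members on average over all libraries. It has 71 annotated pseudogene copies at 95% identity or more. How reads that match a copy were counted is not known, so this rank is uncertain.

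In CD8αα from CD4, 13 of the 34 genes tested (38.2%) differed from CD4 IEL, 4 higher and 9 lower, against 28.5% of all genes tested (15% higher and 13.5% lower). The 9 lower genes were Hk1, Hk2, Gpi1, Pfkfb3, Pkm, Ldha, Ldhb, Pdha1 and Pdk1, and the 4 higher ones Tpi1, Pdk2, Pgls and Pgd. In CD8αα from CD8αβ, 15 of 34 (44.1%) differed from CD8αβ IEL, 4 higher and 11 lower, against 31.2% of all genes tested (16.1% higher and 15.1% lower). Lower there were Hk2, Gpi1, Pfkfb3, Gapdh, Pgk1, Pgam1, Eno1, Pkm, Ldha, Pdha1 and Tkt, and higher Pfkfb4, Pdk1, Pdk2 and Pgm1. These 2 comparisons share no library. In all, 7 genes were called the same way in both: Hk2, Gpi1, Pfkfb3, Pkm, Ldha and Pdha1 lower and Pdk2 higher. The share of all genes tested that was called the same way in both was not counted, so this number has no baseline. Pdk1 was called in opposite directions. The median log2 fold change of the 34 genes was -0.33 for CD8αα from CD4 and -0.12 for CD8αα from CD8αβ, where all genes tested had 0.02 and 0.00.

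**Figure D1:**
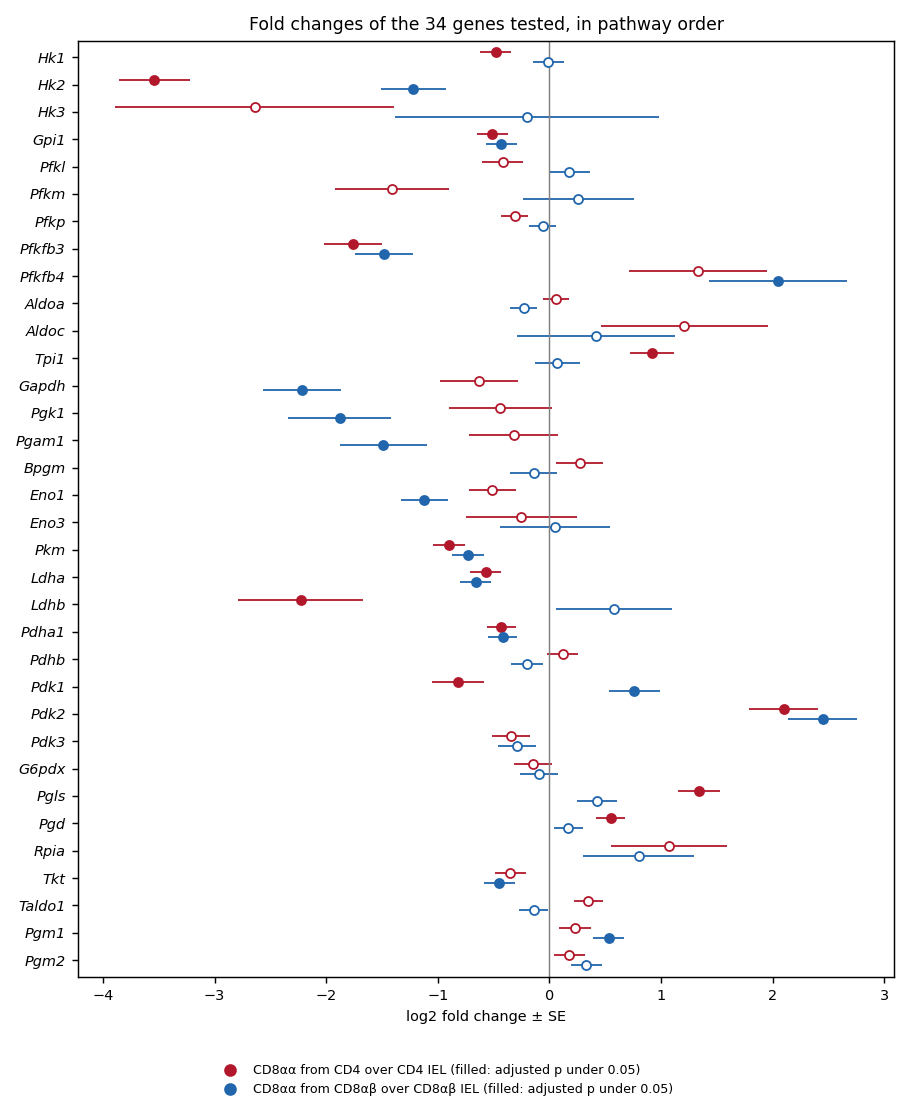
Log2 fold changes (x axis) of the 34 genes tested, in pathway order from top to bottom, for CD8αα from CD4 over CD4 IEL (red) and CD8αα from CD8αβ over CD8αβ IEL (blue). Bars are SE and filled points were called at an adjusted p under 0.05. Hk2, Pfkfb3, Pkm and Ldha lie left of 0 and Pdk2 right of 0 in both comparisons, while the Pdk1 points lie on opposite sides.

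Without the 4 libraries that held Xist, 5 of the 13 calls in CD8αα from CD4 stood (Hk2, Pfkfb3, Pkm, Pdk2 and Pgls), beside 9.56% of all genes. In CD8αα from CD8αβ 3 of the 15 calls stood (Pfkfb3, Gapdh and Pdk2), beside 10.6% of all genes. Every called gene of both comparisons kept its direction. Markers of other cells and of division moved along with these comparisons. All 20 cell cycle genes were called lower in CD8αα from CD8αβ and 19 of 20 in CD8αα from CD4. Their summed level was 1030.0 to 1147 CPM in CD8αα from CD4 against 2401 to 2859 CPM in CD4 IEL, and 1239 to 1369.5 CPM in CD8αα from CD8αβ against 3898 to 5101 CPM in CD8αβ IEL, with no gene at 0 reads. The 12 T cell markers summed to 2022 to 2531 CPM in CD8αα from CD4 against 6451 to 7235 CPM in CD4 IEL, and to 3455 to 3928 CPM in CD8αα from CD8αβ against 5971 to 7090.2 CPM in CD8αβ IEL, none at 0 reads. In each comparison 11 of these markers were called lower and 1 higher, with median log2 fold changes of -5.66 and -4.99. The 12 NK and innate lymphoid markers summed to 3055 to 3683 CPM in CD8αα from CD4 against 1422 to 1577 CPM in CD4 IEL, and to 3378 to 5734 CPM in CD8αα from CD8αβ against 784 to 932 CPM in CD8αβ IEL, although 6 and 4 of them were called lower and 3 and 5 higher. Ncr1 and Klrb1b were at 0 reads in CD8αβ IEL and Il1rl1 in CD8αα from CD8αβ. The 20 epithelial markers summed to 592 to 738 CPM in CD8αα from CD4 against 141 to 284 CPM in CD4 IEL, and to 673 to 1248 CPM in CD8αα from CD8αβ against 368 to 1068 CPM in CD8αβ IEL. Of 18 epithelial markers tested, 2 and 4 were called higher and none lower, and Lyz1 was at 0 reads in CD8αα from CD4 and CD4 IEL. The 15 myeloid markers with a row summed to 269 to 292 CPM in CD8αα from CD4 against 44 to 114 CPM in CD4 IEL, and to 189.9 to 276 CPM in CD8αα from CD8αβ against 118 to 167 CPM in CD8αβ IEL. Of 10 myeloid markers tested, 1 was called higher in each comparison and 1 and 7 lower, and S100a8 and S100a9 were at 0 reads in all groups. The 6 B cell markers with a row summed to 45.4 to 55.2 CPM in CD8αα from CD4 against 3.13 to 6.76 CPM in CD4 IEL, and to 67.3 to 75 CPM in CD8αα from CD8αβ against 10.5 to 20.7 CPM in CD8αβ IEL, with Pax5 at 0 reads in all groups. The 8 stromal and endothelial markers summed to 499 to 591 CPM in CD8αα from CD4 against 70.1 to 115 CPM in CD4 IEL, and to 603 to 764 CPM in CD8αα from CD8αβ against 22.4 to 39.2 CPM in CD8αβ IEL, with Col3a1, Pdgfra and Dcn at 0 reads in all groups. Of 4 stromal and endothelial markers tested, 1 and 2 were called higher and none lower, with median log2 fold changes of -1.55 and 2.04. The 1 B cell marker tested was called higher in both comparisons. The part of these cells and of division in the results below was not tested. In bulk RNA, fewer cells of a type and less RNA per cell cannot be told apart.

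The promoters of 4 of the 7 genes called the same way in both comparisons are shown because they hold the core hypoxia response motif ACGTG, which is part of the E-box CACGTG bound by Myc. Both motifs were searched on both strands in the 250 bases before each RefSeq start (build GRCm38.p6), and capitals mark ACGTG or its complement. Of 50 promoters of the 35 genes, 17 (34%) held ACGTG, against 16.6% of 32851 promoters of all genes, and 4 (8.0%) held CACGTG, against 6.02%. Hk2 lies at chr6:82725025-82774454 on the minus strand, and its window at chr6:82774455-82774704. Pfkfb3 lies at chr2:11471430-11502101, minus strand, with its window at chr2:11502091-11502340. The window of Ldha, chr7:46845554-46845803 on the plus strand, lies 4329 bases from the outermost annotated start of the gene. Pdk2 lies at chr11:95026258-95041354, minus strand, with its window at chr11:95041372-95041621.
Hk2: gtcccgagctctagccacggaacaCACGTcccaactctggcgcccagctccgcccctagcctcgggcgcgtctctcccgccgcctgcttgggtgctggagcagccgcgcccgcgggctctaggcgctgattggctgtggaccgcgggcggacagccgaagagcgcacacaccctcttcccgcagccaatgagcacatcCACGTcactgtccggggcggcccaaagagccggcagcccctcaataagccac
Pfkfb3: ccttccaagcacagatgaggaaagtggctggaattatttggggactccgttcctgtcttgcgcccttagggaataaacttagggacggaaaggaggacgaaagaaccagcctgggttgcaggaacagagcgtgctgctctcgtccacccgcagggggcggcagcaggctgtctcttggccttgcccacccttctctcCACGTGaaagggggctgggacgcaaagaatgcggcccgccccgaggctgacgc
Ldha: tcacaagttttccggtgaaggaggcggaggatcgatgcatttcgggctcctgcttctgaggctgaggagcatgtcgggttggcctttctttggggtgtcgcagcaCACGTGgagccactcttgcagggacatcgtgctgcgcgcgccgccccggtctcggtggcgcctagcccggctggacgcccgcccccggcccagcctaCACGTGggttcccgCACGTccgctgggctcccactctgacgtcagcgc
Pdk2: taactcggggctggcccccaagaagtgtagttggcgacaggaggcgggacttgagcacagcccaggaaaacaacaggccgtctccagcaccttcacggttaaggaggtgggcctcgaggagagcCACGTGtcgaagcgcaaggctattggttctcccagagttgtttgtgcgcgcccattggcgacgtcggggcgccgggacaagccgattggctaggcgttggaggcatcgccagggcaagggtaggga
Ldha held CACGTG at 2 places and ACGTG at a further place, Pfkfb3 and Pdk2 held CACGTG at 1 place each, and Hk2 held ACGTG at 2 places and no CACGTG. Hk2, Pfkfb3 and Ldha were called lower and Pdk2 higher, so windows with the motif belonged to genes called in either direction. Gpi1, Pkm and Pdha1, the other 3 genes called the same way in both comparisons, had no match to ACGTG in their windows. Variants of this motif were not searched.

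Hexokinases trap glucose in the cell by phosphorylation, and Hk2 is the isozyme that T cells are known to induce on activation. Hk2 had 3.24, 4.47 and 3.59 CPM in the 3 libraries of CD8αα from CD4 and 41.5, 54.7 and 36.7 CPM in CD4 IEL. It had 10.5, 7.55 and 6.21 CPM in CD8αα from CD8αβ and 20.8, 12.7 and 23.4 CPM in CD8αβ IEL. The groups did not overlap in either comparison, and the library of CD8αα from CD4 without Xist (replicate 3) lay between the other 2. Hk2 fell 11.6-fold in CD8αα from CD4 (log2 fold change -3.54 ± 0.32, adjusted p = 2.51e-06), and it also fell in CD8αα from CD8αβ (-1.22 ± 0.29, adjusted p = 0.00566). Without the 4 Xist libraries the values were -3.62 (adjusted p = 0.00282) and -1.32 (adjusted p = 0.102). Hk1, the isozyme found in most tissues, fell in CD8αα from CD4 to 176 ± 15.2 CPM, against 245 ± 6.23 CPM in CD4 IEL (-0.48 ± 0.14, adjusted p = 0.0194), a call that ended without CD8αα from CD4 replicate 3 (adjusted p = 0.0849). It averaged 219 ± 19.98 CPM in CD8αα from CD8αβ and 221 ± 38 CPM in CD8αβ IEL (-0.01 ± 0.14, adjusted p = 0.969). Per length, Hk2 made up 2.58%, 3.21% and 3.05% of the 3 hexokinases in CD8αα from CD4 and 19.5%, 24% and 16.6% in CD4 IEL. The share was 5.77%, 4.95% and 4.01% in CD8αα from CD8αβ and 13.3%, 7.93% and 11.2% in CD8αβ IEL. Hk1 thus remained the main hexokinase message in all 12 libraries.

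**Figure D2:**
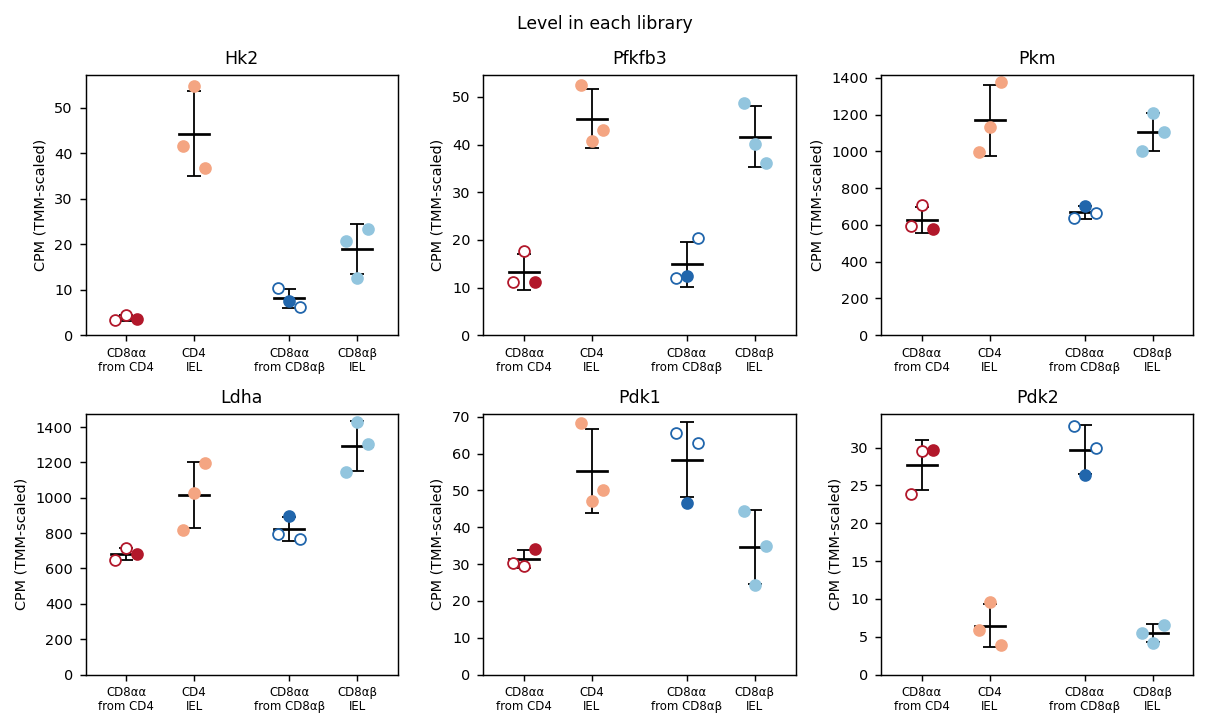
CPM (y axis, from 0) of Hk2, Pfkfb3, Pkm, Ldha, Pdk1 and Pdk2 in each library, with replicates 1 to 3 from left to right in each group. Lines are means, bars SD (n = 3), and open points are the 4 libraries that held Xist. Hk2 is at most 10.5 CPM in CD8αα libraries and at least 12.7 CPM in the others, and Pdk2 at least 23.9 CPM against at most 9.53 CPM.

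Pfkfb3 and Pfkfb4 encode enzymes that set the level of fructose 2,6-bisphosphate, the strongest activator of phosphofructokinase; Pfkfb3 mainly makes it. Pfkfb3 had 11.1, 17.6 and 11.2 CPM in CD8αα from CD4 and 52.6, 40.8 and 43 CPM in CD4 IEL. It had 12, 12.4 and 20.3 CPM in CD8αα from CD8αβ and 48.7, 40.1 and 36.2 CPM in CD8αβ IEL. All 6 CD8αα libraries lay below the other 6, and Pfkfb3 fell in both comparisons (-1.76 ± 0.26, adjusted p = 0.000192, and -1.48 ± 0.26, adjusted p = 0.000584), and without the 4 Xist libraries it was at -2.02 (adjusted p = 0.00676) and -1.74 (adjusted p = 0.0108). Pfkfb4 had 7.17, 13.5 and 7.02 CPM in CD8αα from CD4 and 3.6, 4.44 and 3.0 CPM in CD4 IEL (1.33 ± 0.62, adjusted p = 0.127, not called). In CD8αα from CD8αβ it had 11.2, 19.2 and 14.6 CPM, against 1.25, 8.14 and 1.15 CPM in CD8αβ IEL, and rose (2.05 ± 0.62, adjusted p = 0.0215). That call ended without CD8αα from CD8αβ replicate 2 (adjusted p = 0.0681), CD8αβ IEL replicate 1 (0.0628) or CD8αβ IEL replicate 3 (0.0773), and without the 4 Xist libraries the value was 2.43 (adjusted p = 0.144). The share of Pfkfb4 was higher in every CD8αα library than in any other: per length, Pfkfb4 made up 50.1%, 54.3% and 49.2% of their sum in CD8αα from CD4 and 9.6%, 14.4% and 9.75% in CD4 IEL. It made up 59.3%, 70.6% and 52.7% in CD8αα from CD8αβ and 3.82%, 23.9% and 4.7% in CD8αβ IEL. The 3 chains of phosphofructokinase itself (Pfkl, Pfkm and Pfkp) were not called in either comparison. Pfkp was the main chain in all libraries, with 66.8% to 80.1% of their sum per length.

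**Figure D3:**
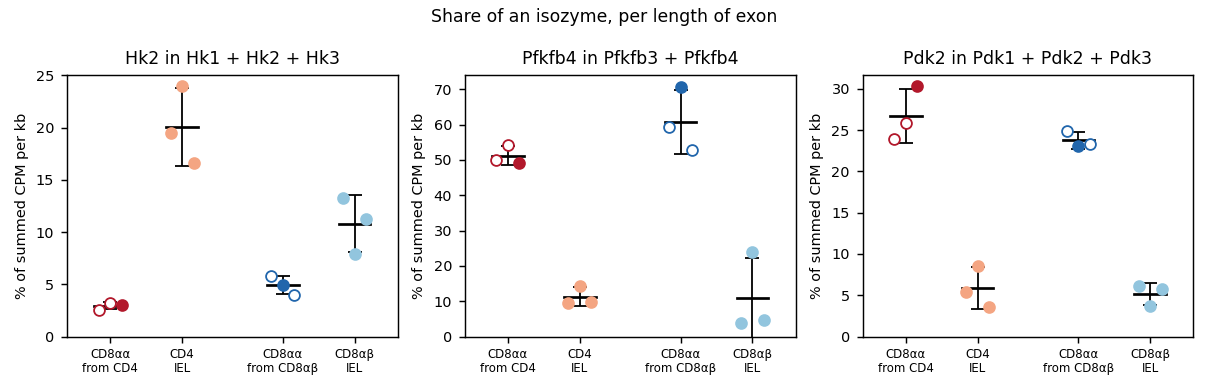
Share of Hk2 among 3 hexokinases, of Pfkfb4 among Pfkfb3 and Pfkfb4, and of Pdk2 among 3 pyruvate dehydrogenase kinases (y axis, percent of summed CPM per kb of exon) in each library. Lines are means, bars SD (n = 3), and open points are the 4 libraries that held Xist. The Hk2 share is at most 5.77% in CD8αα libraries and at least 7.93% in the others, and the Pdk2 share is at least 23.0% against at most 8.58%.

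In the first steps after hexokinase, Gpi1, which turns glucose 6-phosphate into fructose 6-phosphate, fell in both comparisons. It averaged 353 ± 45.4 CPM in CD8αα from CD4 and 504 ± 55 CPM in CD4 IEL (-0.51 ± 0.14, adjusted p = 0.0119). It averaged 402 ± 24.1 CPM in CD8αα from CD8αβ and 540.2 ± 66.2 CPM in CD8αβ IEL (-0.43 ± 0.14, adjusted p = 0.0291). The second call ended without any of CD8αα from CD8αβ replicates 1 to 3 or CD8αβ IEL replicate 1 (adjusted p 0.0539 to 0.117). Aldoa, which splits fructose 1,6-bisphosphate, was not called in either (0.06 ± 0.12 and -0.23 ± 0.12). Triosephosphate isomerase, Tpi1, went the other way from Gpi1 in CD8αα from CD4. It had 139, 146 and 136 CPM in CD8αα from CD4 and 66.7, 85 and 70.1 CPM in CD4 IEL, and rose (0.92 ± 0.20, adjusted p = 0.00375). It had 183, 177 and 192 CPM in CD8αα from CD8αβ and 123, 243 and 160.0 CPM in CD8αβ IEL, where the groups overlapped (0.07 ± 0.20, adjusted p = 0.837). Among the 4 groups, CD4 IEL was lowest, at 66.7 to 85 CPM in its 3 libraries against 123 CPM or more in the other 9. Without the 4 Xist libraries, the value in CD8αα from CD4 was 0.88 (adjusted p = 0.145).

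The enzymes of the payoff phase (Gapdh, Pgk1, Pgam1, Eno1) have processed pseudogenes, and no source used here says how reads that match both gene and copy were counted. At 95% identity or more over at least 200 bases, GENCODE M21 held 71 pseudogene copies of Gapdh, 4 of Pgk1, 1 of Pgam1 and 2 of Eno1, besides 3 of Ldha and 1 each of Gpi1, Tpi1, Pkm, Ldhb and Pdhb. Gapdh had 25.8, 26.2 and 26.7 CPM in CD8αα from CD4 and 42.2, 40.8 and 38.3 CPM in CD4 IEL. It had 26.8, 19.5 and 33.6 CPM in CD8αα from CD8αβ and 219, 74 and 78.4 CPM in CD8αβ IEL. Replicate 1 of CD8αβ IEL stood apart with 219 CPM, against 19.5 to 78.4 CPM in the other 11 libraries. Pgk1 had 19.98, 22.9 and 26.8 CPM in CD8αα from CD4 and 30.4, 29.5 and 34.6 CPM in CD4 IEL, with 25.2, 23.2 and 23.1 CPM in CD8αα from CD8αβ and 184, 45.4 and 34.6 CPM in CD8αβ IEL. Pgam1 had 17.4, 25.9 and 16.9 CPM in CD8αα from CD4 and 22.9, 21.4 and 31 CPM in CD4 IEL, with 21.1, 22.9 and 18.2 CPM in CD8αα from CD8αβ and 108, 35.6 and 31.1 CPM in CD8αβ IEL. The same replicate was thus highest for Pgk1 and Pgam1, at 4.59 and 3.25 times the mean of the other 2 CD8αβ IEL libraries, and 2.88 times for Gapdh. Eno1 had 258, 234 and 242 CPM in CD8αα from CD4 and 291, 302 and 452 CPM in CD4 IEL. In CD8αα from CD8αβ it had 311, 324 and 272 CPM, against 887, 608 and 472 CPM in CD8αβ IEL. Tpi1, Aldoa, Pkm and Ldha in this replicate lay within the range of the other 11 libraries, at 0.609 to 0.868 times the mean of the other 2.

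All 4 genes fell in CD8αα from CD8αβ: Gapdh by 2.22 ± 0.35 on the log2 scale (adjusted p = 0.000296), Pgk1 by 1.88 ± 0.46 (0.0069), Pgam1 by 1.49 ± 0.39 (0.0103) and Eno1 by 1.12 ± 0.21 (0.00127). Without CD8αβ IEL replicate 1 the log2 fold changes were nearer to 0. Gapdh was then at -1.51 ± 0.21, adjusted p = 0.000132, Pgk1 at -0.75 ± 0.21, adjusted p = 0.0162, and Eno1 at -0.83 ± 0.19, adjusted p = 0.00472. Pgam1 was no longer called (-0.69 ± 0.25, adjusted p = 0.0629). For each of the 4 genes, all CD8αα from CD8αβ libraries lay below all CD8αβ IEL libraries, that replicate or not. The genes were called in these same libraries, so this is no separate support. In CD8αα from CD4 none of the 4 was called; their log2 fold changes were -0.63 ± 0.35, -0.44 ± 0.46, -0.32 ± 0.40 and -0.51 ± 0.21 for Gapdh, Pgk1, Pgam1 and Eno1. With CD8αβ IEL replicate 1 left out of the shared fit, Gapdh and Eno1 were called there too, and so was Pfkp. Leaving these 4 genes out of the main fit's counts, 13 of 30 tested genes (43.3%) were called in CD8αα from CD4, 4 higher and 9 lower. In CD8αα from CD8αβ 11 of 30 (36.7%) were called, 4 higher and 7 lower. Over all genes tested, 28.5% and 31.2% were called. The calls in CD8αα from CD4 are the same 13 as before, over fewer genes.

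**Figure D4:**
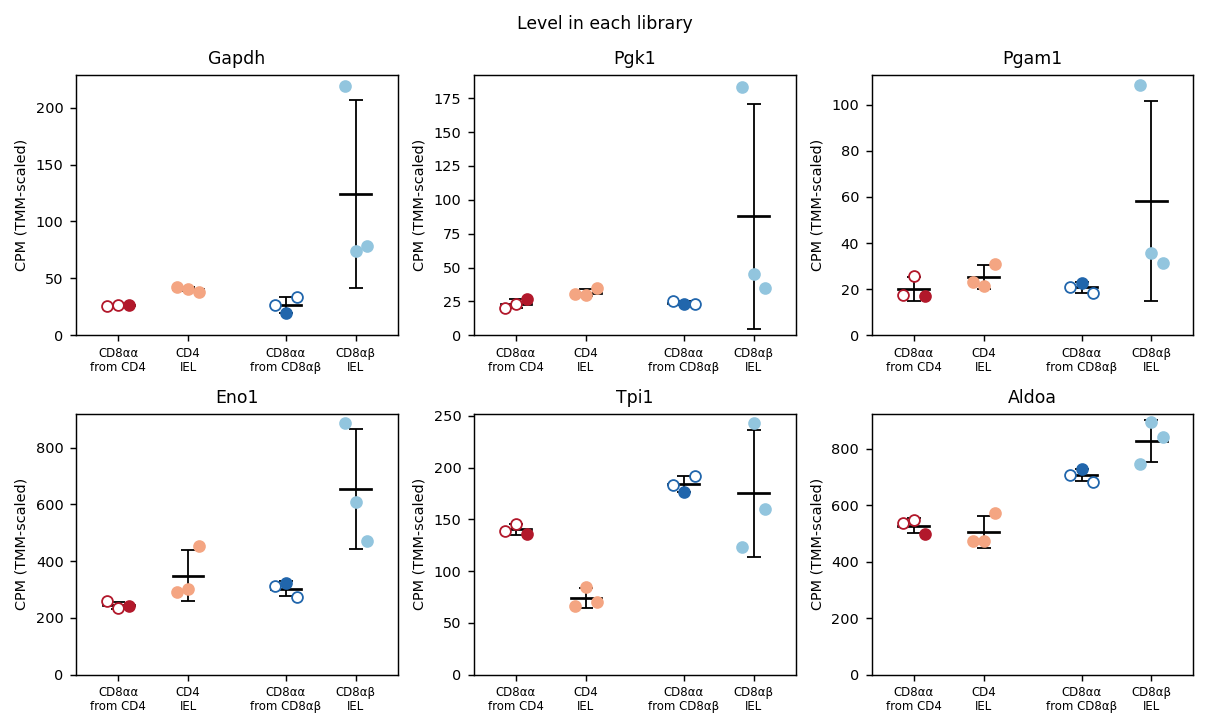
CPM (y axis, from 0) of Gapdh, Pgk1, Pgam1, Eno1, Tpi1 and Aldoa in each library, with replicates 1 to 3 from left to right in each group. Lines are means, bars SD (n = 3), and open points are the 4 libraries that held Xist. CD8αβ IEL replicate 1 is the highest point for Gapdh, Pgk1, Pgam1 and Eno1 and lies inside the range of the other libraries for Tpi1 and Aldoa.

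At the end of glycolysis, Pkm, whose M2 splice form is the pyruvate kinase of dividing cells (splice forms were not resolved here), fell in both comparisons. It had 592, 708 and 578 CPM in CD8αα from CD4 and 996, 1132 and 1376 CPM in CD4 IEL (-0.90 ± 0.14, adjusted p = 0.000248). It had 635, 701 and 666 CPM in CD8αα from CD8αβ and 1003, 1206 and 1105 CPM in CD8αβ IEL (-0.73 ± 0.14, adjusted p = 0.0011). Every CD8αα library lay below every library of the other 2 groups. Ldha, the main lactate dehydrogenase here, had 651, 717 and 679.9 CPM in CD8αα from CD4 and 820.3, 1026 and 1195 CPM in CD4 IEL, and fell (-0.57 ± 0.14, adjusted p = 0.00785). It had 796, 898 and 769 CPM in CD8αα from CD8αβ and 1147, 1429.9 and 1304 CPM in CD8αβ IEL, and fell there as well (-0.66 ± 0.14, adjusted p = 0.00284). Neither comparison had overlapping groups for Ldha. Without the 4 Xist libraries, Pkm stayed called in CD8αα from CD4, at -1.01 (adjusted p = 0.0271), and was at -0.65 (adjusted p = 0.118) in CD8αα from CD8αβ, while Ldha was at -0.57 (adjusted p = 0.194) and -0.52 (adjusted p = 0.241). Ldhb, the heart-type chain, was rare, with 0.512, 1.37 and 1.4 CPM in CD8αα from CD4 and 2.62, 6.26 and 7.04 CPM in CD4 IEL (-2.23 ± 0.56, adjusted p = 0.00884). It averaged 4.55 ± 0.513 CPM in CD8αα from CD8αβ and 3.03 ± 0.309 CPM in CD8αβ IEL, not called. Summed over the 19 enzymes from hexokinase to lactate dehydrogenase, the message was 3228, 3546 and 3219 CPM in CD8αα from CD4 and 4169, 4512 and 5255 CPM in CD4 IEL. The sum was 3951, 4009 and 3840.3 CPM in CD8αα from CD8αβ and 5739, 5856 and 5395 CPM in CD8αβ IEL. Without Gapdh, Pgk1, Pgam1 and Eno1, sums over 15 enzymes ran from 2906 to 3237 CPM in CD8αα from CD4 against 3783 to 4699 CPM in CD4 IEL, and from 3493 to 3620 CPM in CD8αα from CD8αβ against 4341 to 5093 CPM in CD8αβ IEL.

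At the branch to mitochondria, Pdk2 was called higher and Pdha1 lower in both comparisons, and Pdk1 changed in opposite directions. Pdk2, a kinase known for wide expression in adult tissues, had 23.9, 29.6 and 29.6 CPM in CD8αα from CD4 and 5.89, 9.53 and 3.89 CPM in CD4 IEL. It had 32.9, 26.4 and 29.9 CPM in CD8αα from CD8αβ and 5.55, 4.23 and 6.59 CPM in CD8αβ IEL. All 6 CD8αα libraries lay above the other 6, with and without Xist alike, and Pdk2 rose in both comparisons (2.1 ± 0.31, adjusted p = 0.000163, and 2.45 ± 0.31, adjusted p = 4.26e-05). Without the 4 Xist libraries the values were 2.20 (adjusted p = 0.0248) and 2.28 (adjusted p = 0.0197). Pdk1, the kinase known as a target of the hypoxia factor HIF-1, had 30.2, 29.6 and 34 CPM in CD8αα from CD4 and 68.3, 47.1 and 50.2 CPM in CD4 IEL, and fell (-0.82 ± 0.23, adjusted p = 0.016). It had 65.4, 46.7 and 63 CPM in CD8αα from CD8αβ and 44.5, 24.3 and 34.9 CPM in CD8αβ IEL, and rose (0.76 ± 0.23, adjusted p = 0.0214). The fall ended without CD8αα from CD4 replicate 2 (adjusted p = 0.0589) or CD4 IEL replicate 1 (0.0695), and without the 4 Xist libraries the value was -0.70 (adjusted p = 0.322). The rise ended without CD8αα from CD8αβ replicates 1 (0.0797) or 3 (0.0728), or CD8αβ IEL replicates 2 (0.0753) or 3 (0.0645), and without the 4 Xist libraries the value was 0.44 (adjusted p = 0.535). Pdk3 was the main kinase message in every library and was not called (-0.34 ± 0.17 and -0.29 ± 0.17). Per length, Pdk2 made up 23.9%, 25.8% and 30.4% of the 3 kinases in CD8αα from CD4 and 5.42%, 8.58% and 3.58% in CD4 IEL. Its share was 24.9%, 23% and 23.3% in CD8αα from CD8αβ and 6.13%, 3.67% and 5.72% in CD8αβ IEL. Pdha1, the E1 alpha chain of pyruvate dehydrogenase, averaged 153 ± 11.8 CPM in CD8αα from CD4 and 206 ± 14.3 CPM in CD4 IEL (-0.43 ± 0.13, adjusted p = 0.0288), and 153 ± 11.8 CPM in CD8αα from CD8αβ and 204 ± 28.5 CPM in CD8αβ IEL (-0.42 ± 0.13, adjusted p = 0.0301). These calls ended without any of 4 libraries in the first (CD8αα from CD4 replicates 1 and 2, CD4 IEL replicates 1 and 3; adjusted p 0.059 to 0.107) and 3 in the second (CD8αα from CD8αβ replicates 2 and 3, CD8αβ IEL replicate 1; 0.0977 to 0.133). Exon bases of Pdha1 overlap Map3k15 on the other strand, and those of Gpi1 overlap a gene in the same way. Pdhb, the beta chain, was not called in either.

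In the pentose phosphate pathway, 6-phosphogluconolactonase (Pgls) and phosphogluconate dehydrogenase (Pgd) of the oxidative arm rose in CD8αα from CD4, and none of its 6 genes was called lower there. Pgls had 78.4, 98.1 and 126 CPM in CD8αα from CD4 and 42.3, 36.1 and 41 CPM in CD4 IEL (1.34 ± 0.19, adjusted p = 0.000127), with no overlap. It had 116, 98.4 and 97.3 CPM in CD8αα from CD8αβ and 64.7, 90.5 and 75.4 CPM in CD8αβ IEL (0.43 ± 0.18, adjusted p = 0.0923, not called). Pgls without the 4 Xist libraries was at 1.66 (adjusted p = 0.00282) in CD8αα from CD4. Its exon bases are shared with Fam129c on the same strand, and the files do not show which reads were counted for it. Pgd averaged 161 ± 18.3 CPM in CD8αα from CD4 and 110.1 ± 9.1 CPM in CD4 IEL (0.55 ± 0.13, adjusted p = 0.00719). Glucose-6-phosphate dehydrogenase (G6pdx), the entry enzyme, was not called in either comparison (-0.15 ± 0.17 and -0.09 ± 0.17). Of the non-oxidative arm, transketolase (Tkt) had 196, 246 and 201 CPM in CD8αα from CD4 and 246, 283 and 290.2 CPM in CD4 IEL (-0.35 ± 0.14, adjusted p = 0.0735, not called, but called lower with library totals alone and without CD8αα from CD4 replicate 2). It had 285, 301 and 292 CPM in CD8αα from CD8αβ and 344, 455 and 405 CPM in CD8αβ IEL, and fell (-0.45 ± 0.14, adjusted p = 0.0211). That call ended without CD8αα from CD8αβ replicates 1 (adjusted p = 0.0692) or 3 (0.063) or CD8αβ IEL replicate 2 (0.0771). Taldo1 had 152, 166 and 170.1 CPM in CD8αα from CD4 and 122, 118 and 143 CPM in CD4 IEL (0.35 ± 0.13, adjusted p = 0.053, not called). The sum over the 6 enzymes was 654, 779 and 714 CPM in CD8αα from CD4 and 602, 625 and 668 CPM in CD4 IEL, and 859, 877 and 864 CPM in CD8αα from CD8αβ and 839, 1056 and 955 CPM in CD8αβ IEL. The sum of these enzymes overlapped between CD8αα from CD4 and CD4 IEL, in contrast to the sum over glycolytic enzymes. The glycolytic sum holds Pkm and Ldha, called lower in these libraries, and the pentose phosphate sum holds Pgls and Pgd, called higher. Neither sum was tested. Phosphoglucomutase links glucose 6-phosphate to glycogen, and these counts do not show which of the listed genes serves that step. The gene listed as Pgm2 (chromosome 4, called Pgm1 by RefSeq) was not called in either comparison (0.18 ± 0.14, adjusted p = 0.384, and 0.33 ± 0.14, adjusted p = 0.105). The gene listed as Pgm1 (chromosome 5; RefSeq now calls it Pgm2) averaged 81.1 ± 4.26 CPM in CD8αα from CD8αβ and 56 ± 7.02 CPM in CD8αβ IEL and rose (0.53 ± 0.14, adjusted p = 0.0084), a call that ended without CD8αβ IEL replicate 3 (adjusted p = 0.0669).

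Set directly against each other, the CD8αα cells of both origins gave 1 call. Of 34 genes tested 1 (2.94%) was called between CD8αα from CD4 and CD8αα from CD8αβ, against 4.33% of all genes (2.46% lower). It was Pdk1, which was lower in CD8αα from CD4 (-0.90 ± 0.23, adjusted p = 0.0427). The call ended without any 1 of the 6 CD8αα libraries (adjusted p 0.06 to 0.175), without CD4 IEL replicates 2 (0.0627) or 3 (0.0515) or CD8αβ IEL replicate 3 (0.0617). In the fit without the 4 Xist libraries, which called 0.00747% of all genes, the value was -0.46 (adjusted p = 0.953). Log2 fold changes of 31 of the 34 genes were below 0, with a median of -0.23 against -0.03 over all genes tested. The share of all genes below 0 was not counted, and genes measured in the same libraries are not replicates of a direction. Ldhb (-2.02 ± 0.56, adjusted p = 0.061), Aldoa (-0.42 ± 0.12, adjusted p = 0.0599), Hk2 (-1.09 ± 0.31, adjusted p = 0.0687), Tkt (-0.45 ± 0.14, adjusted p = 0.0827) and Taldo1 (-0.42 ± 0.13, adjusted p = 0.0791) were below 0 and missed the threshold; they are the 5 further genes that the DESeq2 Wald test called. For Pkm and Pdk2 the differences were -0.09 ± 0.14 and -0.10 ± 0.28, with intervals of 2 SE either side that reached from -0.36 to 0.18 and from -0.67 to 0.47. The change of CD8αα from CD4 over CD4 IEL minus that of CD8αα from CD8αβ over CD8αβ IEL was called for 2 genes (5.88%, against 2.56% of all genes, 1.35% lower). These were Hk2 (-2.32 ± 0.42, adjusted p = 0.0108) and Pdk1 (-1.58 ± 0.32, adjusted p = 0.0215). Without the 4 Xist libraries, where 0.0971% of all genes were called, the Hk2 difference was -2.30 (adjusted p = 0.418) and that of Pdk1 -1.14 (adjusted p = 0.697). The Pdk1 call ended without any of 5 single libraries (CD8αα from CD4 replicates 2 and 3, CD4 IEL replicate 1, CD8αα from CD8αβ replicates 1 and 3; 0.0519 to 0.0629). Without CD8αβ IEL replicate 1, Tpi1 was called as well (1.05 ± 0.24, adjusted p = 0.0344).

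Between the groups that were not CD8αα, CD4 IEL differed from CD8αβ IEL in 13 of 34 genes (38.2%, against 29.0% of all genes), 2 higher and 11 lower (against 12.9% and 16%). Hk2 and Pdk1 were higher in CD4 IEL, Hk2 with 44.3 ± 9.31 CPM against 19 ± 5.58 CPM in CD8αβ IEL (1.23 ± 0.28, adjusted p = 0.00624). The 11 lower genes included 4 of the 6 pentose phosphate genes and 6 of the 21 glycolytic genes tested. Taldo1 had 122, 118 and 143 CPM in CD4 IEL and 223, 264 and 232 CPM in CD8αβ IEL (-0.91 ± 0.13, adjusted p = 0.000265). Tpi1 (-1.25 ± 0.20, adjusted p = 0.000758), Pgls (-0.95 ± 0.19, adjusted p = 0.00264), Aldoa (-0.71 ± 0.12, adjusted p = 0.000776), Tkt (-0.56 ± 0.14, adjusted p = 0.00877), Pgd (-0.52 ± 0.13, adjusted p = 0.0111) and Pdhb (-0.51 ± 0.14, adjusted p = 0.0132) were also lower in CD4 IEL. For these 7 genes the CD4 IEL libraries all lay below the CD8αβ IEL libraries. The genes were named because they were called between these same groups, so this is no separate support. Gapdh (-1.61 ± 0.35), Eno1 (-0.91 ± 0.21), Pgk1 (-1.48 ± 0.46) and Pgam1 (-1.22 ± 0.39) made up the rest. Without CD8αβ IEL replicate 1, Gapdh was at -0.91 ± 0.21, adjusted p = 0.00669 and Eno1 at -0.63 ± 0.19, adjusted p = 0.0239, while Pgk1 (-0.35 ± 0.21, adjusted p = 0.228) and Pgam1 (-0.41 ± 0.25, adjusted p = 0.245) were no longer called. Ldha (-0.43 ± 0.15, adjusted p = 0.046) and Pfkl (0.59 ± 0.19, adjusted p = 0.0376) were called there instead. The Pgk1 and Pgam1 calls also ended without CD4 IEL replicates 1 or 2, and the Pgk1 call without CD4 IEL replicate 3 (adjusted p 0.0604 to 0.101). With the 4 Xist libraries left out of the shared fit, 8 of the 13 calls stood, beside 18.8% of all genes, and Pdhb, Pdk1, Pgd, Pgk1 and Pgam1 missed the threshold. The Pdk1 call (0.68 ± 0.23, adjusted p = 0.0396) ended without any of 7 single libraries (CD8αα from CD4 replicates 2 and 3, CD4 IEL replicates 1 and 3, CD8αα from CD8αβ replicate 3, CD8αβ IEL replicates 2 and 3; 0.0519 to 0.156). Pkm, Gpi1 and Pfkfb3, lower in CD8αα cells of both origins, were not called between CD4 IEL and CD8αβ IEL (0.08 ± 0.14, -0.10 ± 0.14 and 0.13 ± 0.25). The 20 cell cycle genes, 17 of them called lower in CD4 IEL, summed to 2401 to 2859 CPM in CD4 IEL and 3898 to 5101 CPM in CD8αβ IEL, and 8 of 18 epithelial markers tested were lower in CD4 IEL; their part was not tested.

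Transport at the cell surface was read from a list of 16 glucose and lactate carriers and partners, of which 13 were tested. In CD8αα from CD4 2 of these rose and 3 fell, and in CD8αα from CD8αβ 2 rose and 2 fell, with medians of 0.47 and -0.17. Of all genes tested, 28.5% and 31.2% were called in these comparisons. Slc16a1, which encodes the monocarboxylate transporter MCT1, had 6.83, 8.14 and 8.89 CPM in CD8αα from CD4 and 56.6, 49.1 and 58.1 CPM in CD4 IEL (-2.77 ± 0.22, adjusted p = 9.42e-07). It had 9.91, 7.55 and 14 CPM in CD8αα from CD8αβ and 71.4, 75.5 and 74.9 CPM in CD8αβ IEL (-2.82 ± 0.22, adjusted p = 5.2e-07). All CD8αα libraries lay below the others, and the calls stood without the 4 Xist libraries, at -2.61 (adjusted p = 0.000909) and -3.29 (adjusted p = 0.000242). Slc16a3, which encodes the lactate exporter MCT4, went the other way, with 17.4, 25.3 and 17.3 CPM in CD8αα from CD4 and 9.7, 9.27 and 8.39 CPM in CD4 IEL (1.14 ± 0.22, adjusted p = 0.00182). It had 38.3, 31.4 and 29.1 CPM in CD8αα from CD8αβ and 18.4, 18.5 and 20.7 CPM in CD8αβ IEL (0.78 ± 0.22, adjusted p = 0.014). Slc2a1, the glucose transporter GLUT1 that T cells raise on activation, fell to 27.7 ± 5.06 CPM in CD8αα from CD4, against 49.8 ± 11.6 CPM in CD4 IEL (-0.85 ± 0.22, adjusted p = 0.0112). In CD8αα from CD8αβ it fell to 48.8 ± 11.8 CPM, against 82.5 ± 4.97 CPM in CD8αβ IEL (-0.76 ± 0.22, adjusted p = 0.0169). Slc16a3 lost its call in CD8αα from CD8αβ without CD8αα from CD8αβ replicate 1 (adjusted p = 0.0704). Slc2a1 lost its call in CD8αα from CD4 without replicate 3 of that group (0.0588), and in CD8αα from CD8αβ without replicates 1 (0.0562) or 2 (0.0752) of that group. In the fit without the 4 Xist libraries, Slc2a1 was at -1.18 (adjusted p = 0.0564) in CD8αα from CD4 and at -1.11 (adjusted p = 0.0603) in CD8αα from CD8αβ, each farther from 0, and Slc16a3 was at 0.92 (adjusted p = 0.129) and 0.71 (adjusted p = 0.236).

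Of 24 regulators of glycolysis, 22 were tested. In CD8αα from CD4 3 rose and 6 fell, and in CD8αα from CD8αβ 6 rose and 5 fell, with medians of 0.05 and 0.04, beside 28.5% and 31.2% of all genes called. Irf4, a transcription factor that T cell receptor signals induce and that drives glycolytic genes in T cells, had 11.8, 11.7 and 13.9 CPM in CD8αα from CD4 and 319, 277 and 194 CPM in CD4 IEL (-4.4 ± 0.31, adjusted p = 2.97e-07). It had 16.5, 14.6 and 17.4 CPM in CD8αα from CD8αβ and 252, 101 and 179.8 CPM in CD8αβ IEL (-3.46 ± 0.30, adjusted p = 1.21e-06). Hif1a, the oxygen-sensitive factor that induces glycolytic enzymes, fell to 118 ± 10.7 CPM in CD8αα from CD4, against 395 ± 23.5 CPM in CD4 IEL (-1.75 ± 0.24, adjusted p = 0.000105). It fell to 102 ± 22 CPM in CD8αα from CD8αβ, against 262 ± 96.1 CPM in CD8αβ IEL (-1.37 ± 0.24, adjusted p = 0.000613). Foxo1, a factor of resting T cells, fell as well (-1.83 ± 0.18, adjusted p = 4.46e-06, and -1.46 ± 0.18, adjusted p = 2.6e-05). Irf4, Hif1a and Foxo1 stayed called in both comparisons without the 4 Xist libraries. Hif1a and Foxo1 were named after their values were seen, and so was Myc, a factor that drives the metabolic program of dividing T cells. Myc fell in both (-0.98 ± 0.17, adjusted p = 0.000852, and -0.70 ± 0.17, adjusted p = 0.00688) and was the 1 regulator called between the CD8αα groups, lower in CD8αα from CD4 (-1.0 ± 0.17, adjusted p = 0.00707). Its 3 values without the 4 Xist libraries were -0.97 (adjusted p = 0.0633), -0.62 (adjusted p = 0.209) and -1.07 (adjusted p = 0.592). Egln3, an oxygen sensor and itself a known HIF target, had 6 reads over the 3 libraries of CD8αα from CD4 and 389 in CD4 IEL, with 4 in CD8αα from CD8αβ and 70 in CD8αβ IEL. Epas1, the HIF-2 alpha gene, had 3 reads in CD8αα from CD4 and 183 in CD4 IEL, a ratio of CD4 IEL over CD8αα from CD4 of 54.5 with a 95% counting interval of 18.3 to 267. The 3 regulators higher in CD8αα from CD4 were Bnip3, a mitochondrial protein and known HIF target (3.08 ± 0.42, adjusted p = 0.000103), Rptor, the mTORC1 subunit raptor (1.54 ± 0.21, adjusted p = 9.98e-05) and Mlxip, a glucose-sensing transcription factor (1.09 ± 0.14, adjusted p = 5e-05), and each was also higher in CD8αα from CD8αβ. Without the 4 Xist libraries, 8 of 9 regulator calls stood in CD8αα from CD4 and 4 of 11 in CD8αα from CD8αβ.

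Glycogen breakdown feeds glucose 6-phosphate into glycolysis through phosphoglucomutase. All 12 genes of glycogen and galactose use were tested; 4 rose and 1 fell in CD8αα from CD4, and 5 rose and 2 fell in CD8αα from CD8αβ, with medians of 0.11 and 0.38. Over all genes, 28.5% and 31.2% were called. Pygl, the liver-type glycogen phosphorylase that releases glucose 1-phosphate, had 228, 222 and 216 CPM in CD8αα from CD4 and 31.4, 23.8 and 21.9 CPM in CD4 IEL (3.11 ± 0.29, adjusted p = 3.12e-06). It had 301, 284 and 269.7 CPM in CD8αα from CD8αβ and 21.8, 30.5 and 10.04 CPM in CD8αβ IEL (3.76 ± 0.30, adjusted p = 5.9e-07). The lowest CD8αα library stood far above the highest of the other 6, and the single libraries left without the 4 Xist libraries gave 3.07 (adjusted p = 0.00219) and 3.76 (adjusted p = 0.000634). Gyg, the glycogenin that primes glycogen, had 150.1, 198 and 175 CPM in CD8αα from CD4 and 61.9, 81.2 and 69.2 CPM in CD4 IEL (1.3 ± 0.17, adjusted p = 5.93e-05), and 214, 217 and 188 CPM in CD8αα from CD8αβ and 47.4, 67.5 and 61.1 CPM in CD8αβ IEL (1.81 ± 0.17, adjusted p = 2.84e-06). Gbe1, the enzyme that makes glycogen branches, rose in CD8αα from CD4 (1.31 ± 0.28, adjusted p = 0.0031) and in CD8αα from CD8αβ (1.67 ± 0.28, adjusted p = 0.000483). In CD8αα from CD8αβ, Gys1, the glycogen synthase, rose as well (1.87 ± 0.32, adjusted p = 0.000508). Galm, which interconverts the anomers of galactose, had 5.29, 4.81 and 2.34 CPM in CD8αα from CD4 and 37, 36 and 28.5 CPM in CD4 IEL (-3.02 ± 0.44, adjusted p = 0.000159), and 0.0935, 0.85 and 1.03 CPM in CD8αα from CD8αβ and 11.1, 11.6 and 10.2 CPM in CD8αβ IEL (-4.07 ± 0.51, adjusted p = 3.9e-05). It was higher in CD8αα from CD4 than in CD8αα from CD8αβ (2.67 ± 0.52, adjusted p = 0.013), a call lost without CD8αα from CD4 replicates 1 (adjusted p = 0.0544) or 2 (0.0545) or with only the groups compared (0.055). It was at 1.44 (adjusted p = 0.682) without the 4 Xist libraries. The part of other cells, whose marker sums are given above, in these levels was not tested.

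**Figure D5:**
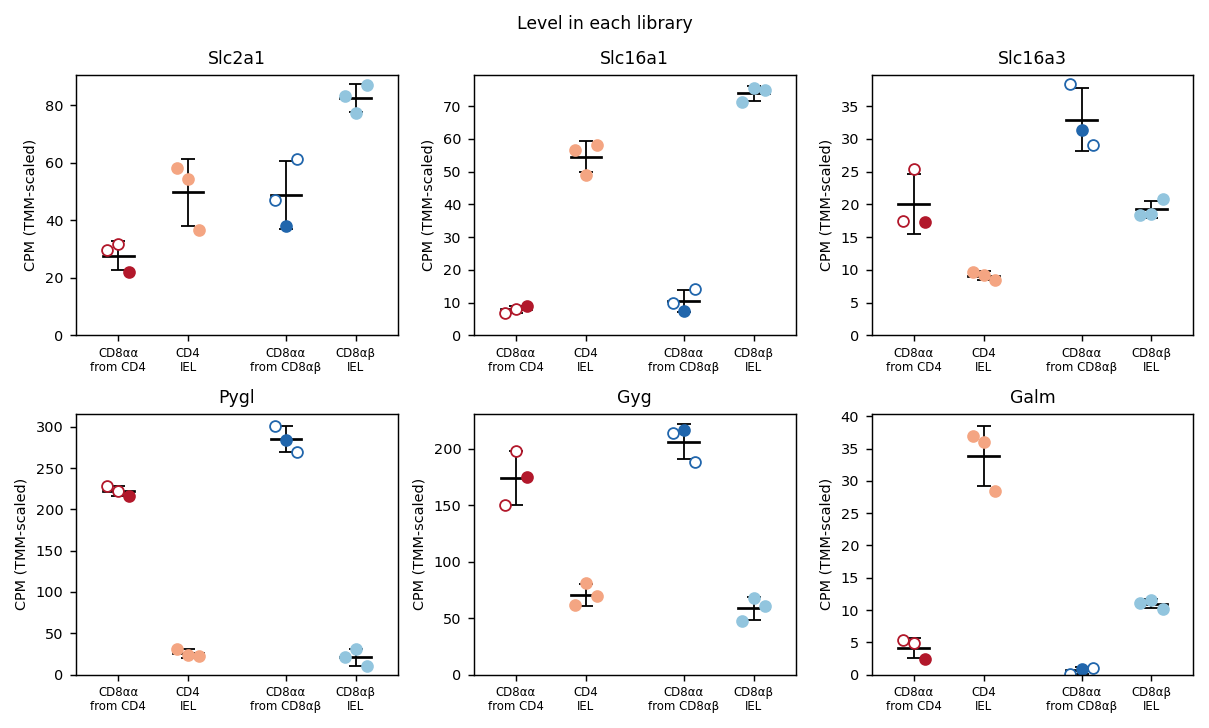
CPM (y axis, from 0) of the transporters Slc2a1, Slc16a1 and Slc16a3 and of Pygl, Gyg and Galm in each library, with replicates 1 to 3 from left to right in each group. Lines are means, bars SD (n = 3), and open points are the 4 libraries that held Xist. Pygl is at least 216 CPM in CD8αα libraries and at most 31.4 CPM in the others, and Slc16a1 at most 14 CPM against at least 49.1 CPM.

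Of 39 further genes of these pathways, 36 had a row and 26 were tested. In CD8αα from CD4 4 rose (Pgm2l1, Pdp2, Hkdc1 and Pck2) and 1 fell (Prps1), and in CD8αα from CD8αβ 6 rose and 1 fell (Prps1), with medians of 0.10 and 0.20. The shares called are below the 28.5% and 31.2% over all genes. Prps1 makes phosphoribosyl pyrophosphate from ribose 5-phosphate for nucleotide synthesis. It averaged 45.3 ± 4.89 CPM in CD8αα from CD4 and 89.98 ± 10 CPM in CD4 IEL (-0.99 ± 0.15, adjusted p = 0.000223). It averaged 49 ± 1.2 CPM in CD8αα from CD8αβ and 99.4 ± 11.9 CPM in CD8αβ IEL (-1.02 ± 0.15, adjusted p = 0.000143). Pck2, the mitochondrial phosphoenolpyruvate carboxykinase, averaged 21.3 ± 3.26 CPM in CD8αα from CD4 and 8.52 ± 2.26 CPM in CD4 IEL (1.32 ± 0.35, adjusted p = 0.011). It averaged 25.5 ± 5.7 CPM in CD8αα from CD8αβ and 8.43 ± 3.86 CPM in CD8αβ IEL (1.58 ± 0.35, adjusted p = 0.00316). Of these, Prps1 in CD8αα from CD8αβ was the 1 call of both comparisons that stood without the 4 Xist libraries, at -1.05 (adjusted p = 0.0319). Hkdc1, a hexokinase-like gene, had 100 reads in CD8αα from CD4 and 2 in CD4 IEL, a ratio of CD8αα from CD4 over CD4 IEL of 56.0 with a 95% counting interval of 15.1 to 469, and a call that ended without CD8αα from CD4 replicate 2 (adjusted p = 0.0703) or CD4 IEL replicates 1 (0.0691) or 3 (0.0589). It had 139 reads in CD8αα from CD8αβ and 124 in CD8αβ IEL. Its level ran from 1.54 to 8.59 CPM among the CD8αα from CD4 libraries and from 0.416 to 11.6 CPM among those of CD8αβ IEL.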

How the data were processed

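Bulk RNA-seq of 12 libraries in 4 groups of 3 was read from 1 table of gene counts, deposited by the authors as raw whole numbers. Reads had been aligned with HISAT2 2.1.0 to mm10, per the submitters' processing notes; no source used here gives the counting program or its use of strand. Of 25965 rows, 66 that shared a symbol (0.0202% of reads) were left out. Groups came from the sample labels. Replicates of a group differed beyond sampling noise (chi-square per gene 11.4 to 60.2), so each counts as 1 sample. A count of 3, used as the floor, equals 0.271 to 0.534 CPM; intervals cover counting error only.

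Counts were tested with edgeR 4.0.16 (quasi-likelihood test, R 4.3.3, TMM scaling, filterByExpr with a minimum count of 10 and a minimum total of 15) in 1 fit over all 12 libraries, with Benjamini-Hochberg adjustment over 12622 genes. DESeq2 1.42.0 was an alternative, and the fits were tested on simulated data. In all, 5 comparisons were made: each CD8αα group over its coreceptor-bearing partner, the CD8αα groups over each other, the partners over each other, and the difference between the CD8αα changes. Levels between genes are per exon length in GENCODE M21. Pseudogene copies were found with BLAST+ 2.17.0. Exon bases of 14 of the 35 genes overlap another gene, so without strand their reads are uncertain. The table's Pgm1 and Pgm2 carry swapped symbols in RefSeq, and genes were matched by chromosome.

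The 35 genes, the lists and the tests were chosen with earlier results of these data known. Values in every library are given for called genes with the largest change in their step and for genes with processed pseudogenes; from each other list up to 3 called genes with the largest change are named, plus those a small count needs. Hif1a, Foxo1 and Myc fall outside this rule. Some genes of these lists are not reported here.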

Additional observations from a re-analysis of the deposited data

Results flagged for a closer look

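For 2 genes the CD8αα change differed between the CD4+ and CD8αβ+ transfers by edgeR's test of the difference itself. For Hk2, the log2 change of CD8αα from CD4 over CD4 IEL minus that of CD8αα from CD8αβ over CD8αβ IEL was -2.32 (adjusted p = 0.0108). Hk2 fell in both CD8αα groups, and it was also higher in CD4 IEL than in CD8αβ IEL. The difference stayed past the threshold without any single library, and without the 4 libraries that held Xist it was as large, at -2.30 (adjusted p = 0.418), in a fit that called 0.0971% of all genes. For Pdk1, the difference was -1.58 (adjusted p = 0.0215), with a fall in CD8αα from CD4 and a rise in CD8αα from CD8αβ. It missed the threshold without any of 5 single libraries (adjusted p 0.0519 to 0.0629) and was at -1.14 without the 4 libraries that held Xist (adjusted p = 0.697).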

How the results depend on the processing

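Results were recomputed under 19 other settings. The 44 results on single genes gave 834 values, of which 743 stayed called, 91 missed the threshold and 0 reversed; 16 results were called in every setting. Called genes of the other lists were put through the same settings after the data had been seen, and of 1290 values 1176 stayed called, 114 missed the threshold and 0 reversed.

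Without the 4 CD8αα libraries that held Xist, 5 genes were called in CD8αα from CD4 against CD4 IEL, 3 in CD8αα from CD8αβ against CD8αβ IEL, 0 between the CD8αα groups, 8 in CD4 IEL against CD8αβ IEL and 0 for the difference between the CD8αα changes. Only 1 library per CD8αα group is then left, and over all genes that fit called 0.00747% between the CD8αα groups and 0.0971% for the difference. Between the CD8αα groups, where 1 gene was called, library totals alone gave 0, the DESeq2 Wald test 6, only the groups compared 3 and the replicate block 2. The DESeq2 Wald test gave 5 for the difference between the CD8αα changes. Leaving out 1 library at a time gave 11 to 16 calls in CD8αα from CD4, 11 to 15 in CD8αα from CD8αβ, 0 to 3 between the CD8αα groups, 10 to 14 in CD4 IEL against CD8αβ IEL and 1 to 3 for the difference. The cause was not tested. Library totals alone moved the median of all genes by 0.13 on the log2 scale in CD4 IEL against CD8αβ IEL.

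The main fit did not treat same-numbered libraries as pairs. Deviations of same-numbered libraries correlated at -0.0156, 0.037 and 0.0602 in hosts given CD4+ cells, where other pairs ran from -0.0734 to 0.0571. In hosts given CD8αβ+ cells they correlated at 0.205, 0.326 and 0.0978, where other pairs ran from -0.257 to 0.0577. The replicate block gave each replicate number a single effect shared by both transfers. Pairs within a transfer were therefore not modelled on their own. With the replicate block, calls numbered 14, 15, 2, 12 and 2 in the order of comparisons above, and Pgk1 and Pgam1 missed the threshold between CD4 IEL and CD8αβ IEL (adjusted p = 0.0507 and 0.057), while Tkt was gained in CD8αα from CD4 against CD4 IEL and between the CD8αα groups, and Ldha between CD4 IEL and CD8αβ IEL. In the hosts given CD8αβ+ cells each library correlated best with its own number.

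Depth limits low genes such as Eno2, Hk3, Ldhb and Epas1. Groups of 3 libraries, which the labels do not tie to separate animals, limit the precision of all others, and gene counts do not resolve splice forms or copies.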
